A study of Homo sapiens with 8 samples.

Results

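The interaction of guide and ibrutinib asks, gene by gene, whether cells with a guide RNA against KLHL14 answered the drug differently from cells with a control guide. It is a difference of differences on the log2 scale: the ibrutinib minus DMSO change with sgKLHL14, less the same change with sgCTRL. A positive value means a stronger rise, or a smaller fall, with sgKLHL14. The members are all genes of the deposited table whose mean log2 level over the 8 libraries was at least 6, which were 10921 of 25066 genes. TMD8 is a human lymphoma line of the diffuse large B cell kind, of its activated B cell-like class. All cells carried Cas9 from a lentivirus and either sgCTRL (genotype given as KLHL14(+/+)) or sgKLHL14 (genotype given as KLHL14(-/-)). They received DMSO, the solvent, or 2 nM ibrutinib for 24 h, in 4 groups of 2 libraries. Separate cultures or clones are not named for the libraries of a group, so the spread that p-values measure may be technical.

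KLHL14 is a BTB-Kelch protein, a class of adaptors that bring substrates to the cullin-3 ubiquitin ligase, and it is mutated in some lymphomas of this type. It resides at the endoplasmic reticulum and has been tied to the turnover of B cell receptor subunits before they reach the cell surface. In this lymphoma type the receptor signals chronically through Bruton tyrosine kinase (BTK) to NF-kB. Ibrutinib blocks BTK covalently.

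Deposited totals ran from 12333876 to 23467110 reads per library, and both sgKLHL14 DMSO libraries were among the 3 deepest. The share of a library's reads that fell in members was 99.7% or more. Of 15 B cell and lymphoma line markers, 15 were members, with summed linear levels of 197799 to 242220. T cell and natural killer markers were low (0 of 15 members). Their sums were 73.2 to 99.5 in the DMSO libraries and 134 to 171 in the ibrutinib libraries. Of them 5, among them CD3D and CD3E, were at 0 in every library, while CD8A was at 5.24 to 6.13. Myeloid markers were low too (0 of 16 members, sums of 52.0 to 111). Of them 7, among them S100A8 and S100A9, were at 0 in every library, while VCAN was at 2.29 to 5.91. Of 15 epithelial and fibroblast markers 5 were members, led by CDH1 at a mean log2 level of 10.25. At the threshold, HOXB3 (mean 5.9996) and AKAP6 (5.998) lay just outside and TMEM22 (6.003) and DIXDC1 (6.004) just inside.

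Of the 10921 genes, 3 passed for the interaction at a Benjamini-Hochberg adjusted p under 0.05 in limma, or 0.0275%, with 2 higher (0.0183%) and 1 lower (0.00916%). KLHL14 itself and CLCN4, an endosomal chloride-proton exchanger, had positive values, and HNRPLL (now HNRNPLL), an RNA-binding protein that controls alternative splicing in lymphocytes, had a negative one. At an unadjusted p under 0.05, 617 genes (5.65%) passed, 326 positive (2.99%) and 291 negative (2.66%). By contrast, 37.9% of genes passed for ibrutinib with sgCTRL (19.4% higher and 18.5% lower) and 42.7% with sgKLHL14 (21.3% higher and 21.4% lower). The interaction is the less precise of these contrasts. Its median SE over genes was 0.121, against 0.0855 for the sgCTRL response, so the counts are not on equal terms.

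HNRPLL stood at a log2 level of 10.64 and 10.71 in the sgCTRL DMSO libraries, 9.75 and 9.78 in sgCTRL ibrutinib, 9.81 and 9.86 in sgKLHL14 DMSO, and 7.95 and 7.99 in sgKLHL14 ibrutinib. The 4 levels fall into 3 tiers: sgCTRL in DMSO highest, sgCTRL in ibrutinib beside sgKLHL14 in DMSO, and sgKLHL14 in ibrutinib lowest. With ibrutinib HNRPLL changed by -0.91 with sgCTRL (SE 0.082, limma adjusted p = 1.04e-07). With sgKLHL14 it changed by -1.87 (limma adjusted p = 2.07e-11). The interaction was -0.96 (SE 0.12, 95% interval -1.21 to -0.72, limma adjusted p = 0.00172). On the linear scale the ratio of ibrutinib to DMSO with sgKLHL14 was thus 0.513 times that with sgCTRL, a steeper fall. The guide difference was -0.84 in DMSO (limma adjusted p = 8.41e-06) and -1.80 in ibrutinib (limma adjusted p = 1.44e-10). The lowest group rested on 152 and 116 reads. HNRPLL passed in all 8 fits that left out 1 library, with adjusted p from 0.00586 to 0.0193.

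KLHL14 is the targeted gene, and its mRNA was not reduced in the libraries labelled sgKLHL14. It stood at 12.07 and 12.06 in sgCTRL DMSO, 12.30 and 12.30 in sgCTRL ibrutinib, 12.19 and 12.33 in sgKLHL14 DMSO, and 13.16 and 13.16 in sgKLHL14 ibrutinib. The sgKLHL14 ibrutinib libraries were the highest of the 8, and the other 6 lay between 12.06 and 12.33. Under ibrutinib KLHL14 rose by 0.24 in sgCTRL cells (SE 0.059, limma adjusted p = 0.00405) and by 0.90 in sgKLHL14 cells (limma adjusted p = 2.19e-09). Its interaction was 0.66 (SE 0.084, 95% interval 0.48 to 0.83, limma adjusted p = 0.00202), a ratio of 1.58 between the ibrutinib to DMSO ratios. Every ibrutinib and DMSO library paired within sgKLHL14 differed by 0.82 to 0.97, and within sgCTRL by 0.23 to 0.25. Gene-level counts do not read the targeted bases, so they cannot decide on the label KLHL14(-/-). Whether the coding sequence was edited was not tested, and every direction given here is for the libraries labelled sgKLHL14. KLHL14 passed in all 8 fits without 1 library (adjusted p from 0.000588 to 0.0262).

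CLCN4 differed by guide already in DMSO. Its level was 8.82 and 8.84 in sgCTRL DMSO and 10.13 and 10.26 in sgKLHL14 DMSO, and it was 7.72 and 7.90 in sgCTRL ibrutinib against 9.998 and 10.04 in sgKLHL14 ibrutinib. The 4 sgKLHL14 libraries were all above the 4 sgCTRL libraries, and the gap widened with the drug. CLCN4 fell by 1.02 with sgCTRL (limma adjusted p = 1.52e-07). With sgKLHL14 the change of -0.18 did not pass (limma adjusted p = 0.138). The interaction was 0.84 (SE 0.13, 95% interval 0.56 to 1.12, limma adjusted p = 0.0263), a ratio of 1.79 between the ibrutinib to DMSO ratios. This call is the least secure of the 3: of the 8 fits without 1 library it passed only without sgCTRL ibrutinib replicate 2 (adjusted p = 0.0195), and the others gave 0.0548 to 0.296. It also missed the threshold with reads thinned to the smallest library (0.79, adjusted p = 0.175) and with voom on recovered reads (0.85, adjusted p = 0.0803).

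**Figure D1:**
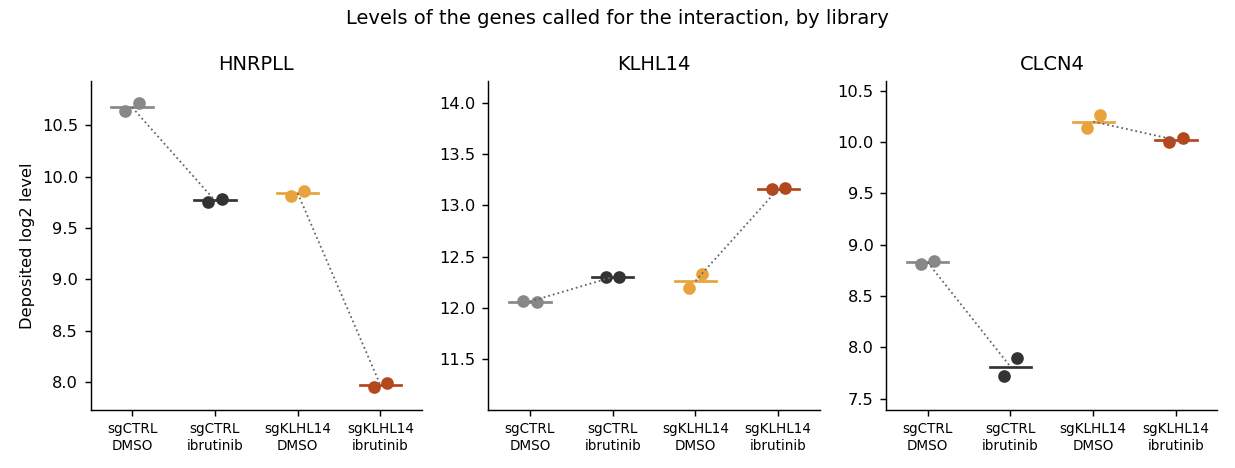
Deposited log2 levels (vertical axis, of the same height in every panel and not starting at 0) of HNRPLL, KLHL14 and CLCN4 in the 8 libraries; points are libraries, bars are means of 2 and dotted lines join DMSO to ibrutinib within a guide. HNRPLL falls more steeply with sgKLHL14 (-1.87 against -0.91), KLHL14 rises more (0.90 against 0.24), and CLCN4 falls with sgCTRL (-1.02) but by only 0.18 with sgKLHL14.

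BTK, the drug's target, rose by 0.17 with sgCTRL (limma adjusted p = 0.0263) and by 0.28 with sgKLHL14 (limma adjusted p = 0.000589), and its interaction of 0.12 did not pass (95% interval -0.053 to 0.28, limma adjusted p = 0.933). Its 8 levels ran from 13.72 to 14.05.

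Next by p-value came genes that did not pass. The positive estimates were led by C1orf38 (now THEMIS2), a signalling scaffold of B cells, at 0.71 (SE 0.13, limma adjusted p = 0.108). C1orf38 was at 8.70 and 8.80 in sgCTRL DMSO, 8.73 and 8.71 in sgCTRL ibrutinib, 9.48 and 9.31 in sgKLHL14 DMSO, and 10.09 and 10.06 in sgKLHL14 ibrutinib. It rose with ibrutinib by 0.68 with sgKLHL14 (limma adjusted p = 1.29e-05), while the sgCTRL change was -0.030 (limma adjusted p = 0.822). SLAMF7, a surface receptor of plasma cells, had an interaction of 0.52 (SE 0.10, limma adjusted p = 0.194). SLAMF7 was at 10.74 and 10.88 in sgCTRL DMSO, 9.23 and 9.23 in sgCTRL ibrutinib, 11.18 and 11.15 in sgKLHL14 DMSO, and 10.13 and 10.07 in sgKLHL14 ibrutinib. SLAMF7 fell by 1.58 with sgCTRL (limma adjusted p = 2.29e-11) and fell by 1.06 with sgKLHL14 (limma adjusted p = 3.76e-09).

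The other genes of smallest p with positive estimates were HTRA3, a secreted serine protease (0.73, SE 0.15), AP1S3, a subunit of a clathrin adaptor (0.42, SE 0.087), COL9A3, a collagen chain (0.56, SE 0.13), WARS, the cytosolic tryptophanyl-tRNA synthetase (0.35, SE 0.080), TPST2, a tyrosine sulfotransferase of the Golgi (1.06, SE 0.25), and TRAM1, a membrane protein of the translocon (0.32, SE 0.080). Their limma adjusted p-values ran from 0.208 to 0.476. AP1S3 separated the groups: it was at 10.97 and 10.96 in sgCTRL ibrutinib and between 11.33 and 11.42 in the other 6 libraries. Its response was -0.40 with sgCTRL (limma adjusted p = 6.18e-05) and 0.018 with sgKLHL14 (limma adjusted p = 0.832). HTRA3 rose with either guide, by 0.80 with sgCTRL and by 1.53 with sgKLHL14.

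Negative estimates of small p included MX1, an interferon-induced antiviral GTPase (-0.37, SE 0.084), MCM2 (-0.37, SE 0.086) and MCM7 (-0.33, SE 0.085), subunits of the replicative helicase, and CNR1, a cannabinoid receptor (-0.51, SE 0.13). They further included TBC1D2B, a Rab GTPase-activating protein (-0.65, SE 0.16), CDCA8, a subunit of the chromosomal passenger complex (-0.37, SE 0.097), TUBA1C, an alpha-tubulin (-0.32, SE 0.086), HIST1H2BK, a histone gene whose reads may be shared with near-identical copies (-0.34, SE 0.088), and VPREB3, which associates with immunoglobulin chains early in B cell development (-1.46, SE 0.37). Their limma adjusted p-values ran from 0.353 to 0.476. CNR1 was at 8.29 and 8.39 in sgCTRL DMSO, 10.67 and 10.79 in sgCTRL ibrutinib, 7.98 and 8.15 in sgKLHL14 DMSO, and 9.90 and 9.98 in sgKLHL14 ibrutinib. It rose in both, by 2.39 with sgCTRL and 1.88 with sgKLHL14. VPREB3 had 11 and 9 reads in sgCTRL DMSO, 80 and 81 in sgCTRL ibrutinib, 86 and 79 in sgKLHL14 DMSO, and 215 and 157 in sgKLHL14 ibrutinib. VPREB3 rose with ibrutinib by 3.27 with sgCTRL and 1.81 with sgKLHL14, and the few reads of the first group limit its estimate. The interaction was -1.99 without sgCTRL DMSO replicate 1 (adjusted p = 0.0175) and -0.92 without replicate 2 (adjusted p = 0.446). It was -0.36 with a larger pseudocount (adjusted p = 0.929), and it passed in 1 of the 20 other settings, where adjusted p ran from 0.0175 to 0.998.

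Across all 10921 genes the responses with either guide were alike. Their Pearson correlation over genes was 0.904 and the Spearman correlation 0.865, between contrasts that share no library but do share cell line, drug and processing. The SD over genes was 0.391 for the sgCTRL response, 0.403 for the sgKLHL14 response and 0.175 for the interaction. The responses of 3332 genes passed with both guides, 80.5% of the sgCTRL calls and 71.5% of the sgKLHL14 calls, and 0 of them were opposite in direction. A further 806 genes passed with sgCTRL alone and 1329 with sgKLHL14 alone. Of the 806, the interaction passed for CLCN4, and of the 1329 for 0 genes in limma. At an unadjusted p under 0.05 were 13.5% of the 806 and 15% of the 1329 (199 genes), where 5.65% of all genes were. Picking genes by 1 response passing without the other favours a small interaction p. Passing with 1 guide alone thus came in nearly all cases without an interaction that passed. The response estimates of these genes had the same sign with the other guide in 93.7% and 95.3% of cases.

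**Figure D2:**
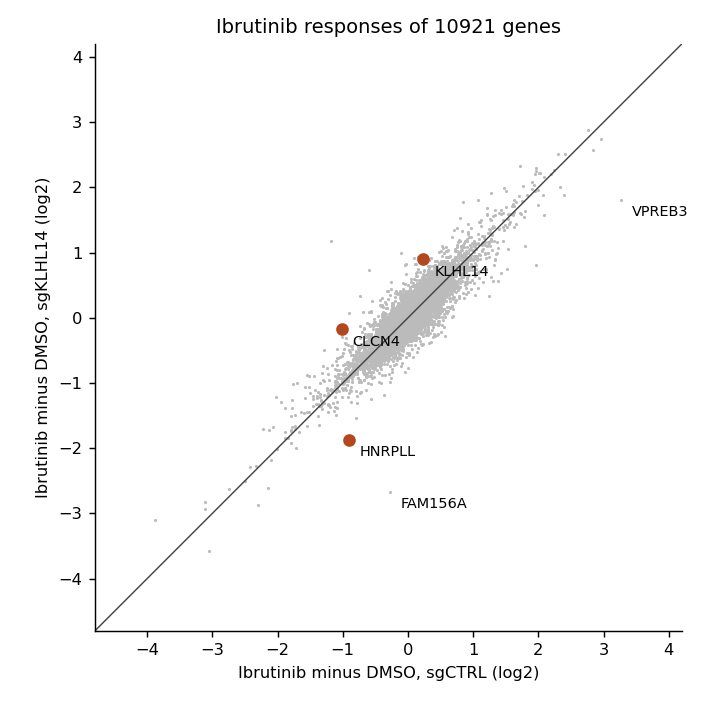
Ibrutinib minus DMSO change with sgCTRL (horizontal axis, log2) against the change with sgKLHL14 (vertical axis, log2) for 10921 genes; grey points are genes, red points the 3 genes that passed for the interaction, and the line marks equal responses. The points follow the line (Pearson correlation 0.904), with HNRPLL below it and KLHL14 and CLCN4 above it, and FAM156A, which did not pass, far from it.

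Strongly responding genes were taken by the response averaged over guides, which in this balanced design does not use the interaction and which passed for 55.8% of all genes. The 162 genes that rose by at least 1 on average had a median response of 1.29 with sgCTRL and 1.37 with sgKLHL14. Their median interaction was 0.056, and 93 of 162 were positive (57.4%, against 48.7% of all genes). The 129 genes that fell by at least 1 had a median response of -1.33 with sgCTRL and -1.26 with sgKLHL14, a median interaction of 0.071, and 84 positive estimates (65.1%). The sgKLHL14 response lay above the sgCTRL response in every pairing of libraries for 24.8% of these falling genes (9.12% of all genes) and below it for 6.98% (8.86% of all genes). Of the falling genes 1 (HNRPLL) passed for the interaction, with 21 positive and 4 negative at an unadjusted p under 0.05, and of the rising genes 0 did in limma (14 positive and 11 negative at an unadjusted p under 0.05). The rising median was 0.015 without sgCTRL DMSO replicate 1, 0.021 without sgCTRL ibrutinib replicate 2 and 0.0215 without sgKLHL14 DMSO replicate 1, and at most 0.070 in the other fits without 1 library. The falling median was 0.036 without sgKLHL14 DMSO replicate 2, 0.040 without sgKLHL14 ibrutinib replicate 2 and 0.046 without sgCTRL DMSO replicate 1, and at most 0.094.

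The guides can also be compared within each treatment. In DMSO 207 genes passed (1.9%) and in ibrutinib 279 (2.55%). Of these, 114 passed in both, always in the same direction, which is 55.1% of the DMSO calls and 40.9% of the ibrutinib calls. The 165 genes that passed in ibrutinib and not in DMSO include 1 gene with an interaction that passed, KLHL14. HNRPLL and CLCN4 were among the 114. Of the 93 genes that passed in DMSO and not in ibrutinib, 0 passed for the interaction in limma. At an unadjusted p under 0.05 were 38 of these 93, where 5.65% of all genes were. Because the guide differences that picked them make up the interaction, the choice itself favours a small interaction p.

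Gene lists were then described by their counts and medians, beside the median interaction of -0.004 over all genes, of which 48.7% had positive estimates. The lists were chosen with earlier results of these data known, and no test of a list was made. Beside KLHL14, 0 members of any list passed for the interaction in limma, and counts below are at an unadjusted p under 0.05, a level that 5.65% of all genes reached.

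Cell cycle genes leaned negative. All 31 S phase genes had negative estimates (median -0.20, range -0.41 to -0.050), and 12 of 31 reached the unadjusted level, all negative, where 2.66% of all genes did. The median over S phase genes of the level, taken relative to each gene's own mean, was 0.13 and 0.11 in sgCTRL DMSO, -0.064 and -0.11 in sgCTRL ibrutinib, 0.21 and 0.20 in sgKLHL14 DMSO, and -0.20 and -0.25 in sgKLHL14 ibrutinib. So both sgKLHL14 DMSO libraries were the highest and both sgKLHL14 ibrutinib libraries the lowest of the 8, with no overlap between groups. Ibrutinib lowered 17 and raised 4 S phase genes with sgCTRL, and lowered 26 and raised 1 with sgKLHL14. Examples of the interaction were MCM2 (-0.37), MCM7 (-0.33) and MCM4 (-0.28), all of the helicase, and TYMS, the thymidylate synthase (-0.31), RFC3, of the clamp loader (-0.35), and CCNE2, cyclin E2 (-0.41).

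MCM2 was at 12.40 and 12.39 in sgCTRL DMSO, 12.16 and 12.12 in sgCTRL ibrutinib, 12.63 and 12.49 in sgKLHL14 DMSO, and 11.92 and 11.96 in sgKLHL14 ibrutinib. It fell by 0.26 with sgCTRL (limma adjusted p = 0.00270) and by 0.63 with sgKLHL14 (limma adjusted p = 2.26e-07). Neither guide difference passed, at 0.17 in DMSO (limma adjusted p = 0.187) and -0.20 in ibrutinib (limma adjusted p = 0.0988). MCM7 fell by 0.45 with sgKLHL14 (limma adjusted p = 1.01e-05), and its sgCTRL change of -0.12 did not pass (limma adjusted p = 0.118).

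The G2/M list leaned the same way. Of 30 genes 29 had negative estimates (median -0.15), 9 reached the unadjusted level with a negative value and 1, the phosphatase CDC25B, with a positive value (0.23). Ibrutinib lowered 25 G2/M genes with sgCTRL and 28 with sgKLHL14, and the median response went from -0.28 to -0.47. CDC20, an activator of the anaphase-promoting complex, had an interaction of -0.35, CENPA, the centromeric histone, -0.32, and BIRC5, survivin, -0.28. Over all 20 other settings, among them every fit without 1 library, the S phase median stayed between -0.22 and -0.18 and the G2/M median between -0.17 and -0.14. With reads thinned to the smallest library they were -0.18 and -0.14. Whether fewer cycling cells or less mRNA per cycling cell lay behind these levels cannot be told apart in bulk RNA.

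The promoters of the helicase genes are shown because E2F factors are known to drive S phase genes from sites near their starts. Sequences are those of RefSeq on GRCh38.p14, 250 bases before to 50 bases after the gene's start, 5′ to 3′ on the gene's strand, and capitals mark matches on either strand to TTTGGCGC, TTTCGCGC, TTTGCCGC or TTTCCCGC. MCM2 lies at chr3:127598161-127598460 on the plus strand and MCM7 at chr7:100101348-100101647 on the minus strand.
MCM2: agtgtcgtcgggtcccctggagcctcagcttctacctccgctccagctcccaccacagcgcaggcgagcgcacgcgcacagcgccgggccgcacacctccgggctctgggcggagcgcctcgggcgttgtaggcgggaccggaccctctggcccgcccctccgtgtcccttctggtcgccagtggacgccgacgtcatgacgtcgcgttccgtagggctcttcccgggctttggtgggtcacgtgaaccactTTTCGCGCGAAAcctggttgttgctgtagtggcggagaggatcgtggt
MCM7: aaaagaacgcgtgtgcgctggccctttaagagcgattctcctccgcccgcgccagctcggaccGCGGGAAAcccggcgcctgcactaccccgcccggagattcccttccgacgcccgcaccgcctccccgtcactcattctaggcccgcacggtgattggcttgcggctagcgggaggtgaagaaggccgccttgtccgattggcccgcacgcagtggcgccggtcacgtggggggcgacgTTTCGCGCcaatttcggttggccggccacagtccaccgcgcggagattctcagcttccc
Each window held 2 matches, which in MCM2 overlap as one site read from both strands. Of 27 S phase members with a promoter in the RefSeq table, 16 held a match (59.3%), against 3.33% of all 27305 promoters and 5.78% of the 8760 found for members. Among 24 G2/M members 2 held one (8.33%). A match is a description of the letters only.

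Interferon-stimulated genes, which ibrutinib raised in 30 of 35 cases with either guide, had a median interaction of -0.10. Of the 35, 22 had negative estimates, 5 reached the unadjusted level and all 5 were negative: MX1 (-0.37), OAS3, an activator of RNase L (-0.37), EPSTI1 (-0.45), IFI27 (-0.61) and IFI44L (-1.14). MX1 was at 11.47 and 11.40 in sgCTRL DMSO, 12.47 and 12.54 in sgCTRL ibrutinib, 11.69 and 11.64 in sgKLHL14 DMSO, and 12.38 and 12.33 in sgKLHL14 ibrutinib. The guides differed by 0.23 in DMSO (limma adjusted p = 0.0616) and by -0.14 in ibrutinib (limma adjusted p = 0.274), and neither passed. MX1 rose by 1.07 with sgCTRL (limma adjusted p = 2.48e-10) and 0.70 with sgKLHL14 (limma adjusted p = 4.82e-08). IFI44L had 18 and 45 reads in sgCTRL DMSO, and its rises of 1.96 and 0.82 rest on low counts. The median response of the list was 0.73 with sgCTRL and 0.70 with sgKLHL14. Its median interaction was -0.13 without sgCTRL DMSO replicate 1 and -0.058 with thinned reads, the ends of its range over the other settings.

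The MX1 promoter is shown for the element through which interferon-activated factors are known to bind, and capitals mark a match, on either strand, to GAAA followed by any bases NN and again GAAA. It lies at chr21:41420308-41420607 on the plus strand, in the same window and build.
MX1: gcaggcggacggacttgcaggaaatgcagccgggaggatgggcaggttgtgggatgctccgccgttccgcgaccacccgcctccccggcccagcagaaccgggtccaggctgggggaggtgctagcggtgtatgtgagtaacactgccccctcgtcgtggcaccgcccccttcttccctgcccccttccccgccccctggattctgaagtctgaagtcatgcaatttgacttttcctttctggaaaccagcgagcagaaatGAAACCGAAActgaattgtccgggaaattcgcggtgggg
The window held 1 match. Such a match was in 17 of 27 interferon-stimulated members with a promoter in the table (63.0%), against 3.65% of all promoters and 0 of 27 S phase members.

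Plasma cell genes leaned positive. Of 19 members 15 had positive estimates (median 0.18), and 8 reached the unadjusted level, all positive, where 2.99% of all genes did. They were the transcription factors PRDM1 (0.23), IRF4 (0.31) and XBP1 (0.38) and the coactivator POU2AF1 (0.26), the receptor SLAMF7 (0.52), the signal peptidase subunit SEC11C (0.28), the elongation factor ELL2 (0.27) and HERPUD1, of endoplasmic reticulum degradation (0.18). The members' median level, relative to each gene's mean, was -0.15 and -0.16 in sgCTRL DMSO, -0.0021 and 0.022 in sgCTRL ibrutinib, 0.042 and -0.064 in sgKLHL14 DMSO, and 0.22 and 0.22 in sgKLHL14 ibrutinib. The sgKLHL14 ibrutinib libraries were the highest of the 8. Over the other settings the median interaction ranged from 0.14 to 0.20.

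IRF4, which this lymphoma type needs to survive, was at 15.95 and 15.89 in sgCTRL DMSO, 15.03 and 15.06 in sgCTRL ibrutinib, 16.00 and 16.09 in sgKLHL14 DMSO, and 15.46 and 15.50 in sgKLHL14 ibrutinib. It fell by 0.88 with sgCTRL (limma adjusted p = 5.88e-09) and by 0.57 with sgKLHL14 (limma adjusted p = 1.25e-06). The guides differed by 0.43 in ibrutinib (limma adjusted p = 0.000397), and by 0.12 in DMSO without passing (limma adjusted p = 0.372). The interaction of 0.31 did not pass (95% interval 0.12 to 0.50, limma adjusted p = 0.543). XBP1, the factor of the secretory programme, rose by 0.21 with sgCTRL (limma adjusted p = 0.0232) and by 0.59 with sgKLHL14 (limma adjusted p = 2.86e-06).

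**Figure D3:**
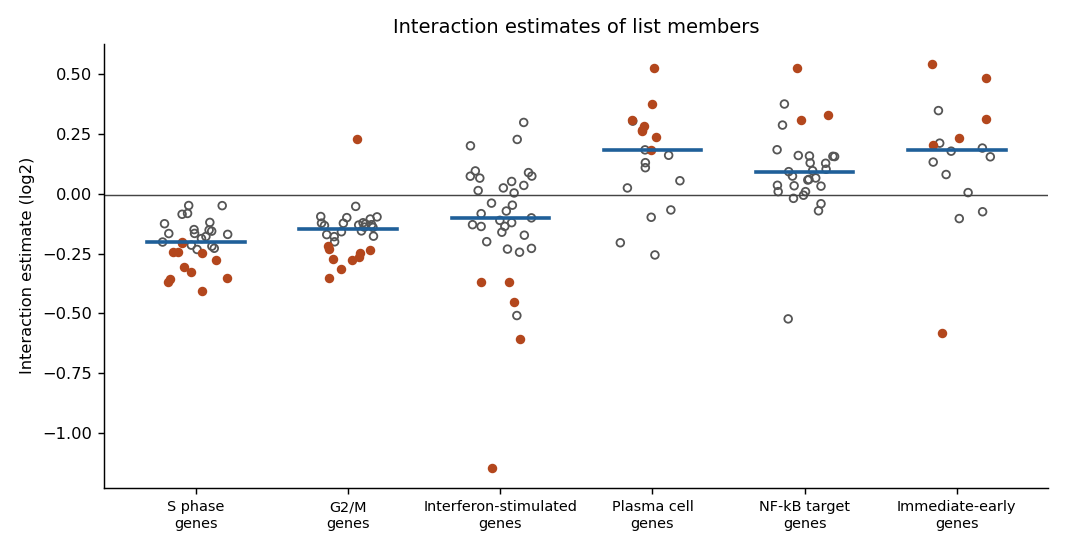
Interaction estimates (vertical axis, log2, sgKLHL14 minus sgCTRL response) of the members of 6 gene lists; filled points reached an unadjusted p under 0.05, open points did not, blue bars are list medians and the line is the median of all genes (-0.004). All 31 S phase genes and 29 of 30 G2/M genes lie below 0, while 15 of 19 plasma cell genes and 24 of 29 NF-kB target genes lie above it.

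NF-kB target genes, the main transcriptional output of BTK in these cells, had a median interaction of 0.092, with 24 of 29 estimates positive. Ibrutinib lowered 22 of them with sgCTRL and 21 with sgKLHL14, and the median response was -0.50 and -0.41. At the unadjusted level were 3 members, all positive: SLAMF7, IRF4 and TNFAIP2 (0.33). SLAMF7 and IRF4 were also counted among the plasma cell genes. Over the other settings the median ran from 0.045, without sgKLHL14 DMSO replicate 2, to 0.11, with thinned reads. Of 16 immediate-early genes 13 were positive (median 0.18). At the unadjusted level were 5 positive members, among them KLF2 (0.54), JUN (0.48), ATF3 (0.31) and BTG2 (0.20), and 1 negative, EGR2 (-0.58). The immediate-early median was 0.090 without sgCTRL DMSO replicate 1. Cytokine and chemokine genes had a median of 0.12 over 13 members, with TNF (0.46) and CXCL10 (0.80) at the unadjusted level. CXCL10 had 16 to 53 reads in the ibrutinib libraries, and its estimate ran from 0.46 without sgCTRL ibrutinib replicate 2 to 1.15 without replicate 1. Without sgCTRL DMSO replicate 1 that median was 0.024.

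Of 15 genes of STAT3 and cytokine feedback 11 were positive (median 0.088), and 4 reached the unadjusted level, among them SOCS1, an inhibitor of Janus kinases (0.63), STAT3 itself (0.19) and the kinase PIM2 (0.18). ERK feedback and output genes had a median of 0.105 over 9 members (0.0445 without sgKLHL14 ibrutinib replicate 1), with PHLDA1 (0.34) at the unadjusted level. Adhesion and migration receptors had a median of 0.074 over 19 (0.139 without sgCTRL DMSO replicate 2), with the integrin subunits ITGAX (0.55), ITGAL (0.34) and ITGB1 (0.33) at that level. Without sgKLHL14 DMSO replicate 2 the medians of the STAT3 and adhesion lists were 0.050 and 0.023, the lowest of their ranges.

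Components of B cell receptor signalling had a median interaction of 0.016, with 21 of 34 positive. The sgKLHL14 response lay above the sgCTRL response in every pairing of libraries for 9 of 34 and below it for 2, where 9.12% and 8.86% of all genes did. At the unadjusted level were 4 of 34, all positive, among them DOK3, an adaptor (0.32), PRKCB, protein kinase C beta (0.21), and RASGRP3, a Ras exchange factor (0.20). Their median was -0.0045 without sgCTRL DMSO replicate 1 and was 0.086 without replicate 2. The Toll-like receptor and MYD88 pathway had a median of 0.045 over 22 (0.070 without sgKLHL14 DMSO replicate 2), with IRAK3, an inhibitor of the pathway (0.63), at the unadjusted level. Among 31 BTB-Kelch and cullin-3 genes the median was -0.035, with KLHL14 (0.66) and KEAP1, the adaptor for NRF2 (-0.23), at the unadjusted level. Of 29 genes of endoplasmic reticulum folding and degradation 18 were positive (median 0.067), and 3 were at that level, all positive: XBP1, DERL2 (0.26) and HERPUD1. XBP1 and HERPUD1 were also counted among the plasma cell genes. The sgKLHL14 response lay above in every pairing for 9 of 29 and below for 0. The median was 0.030 without sgCTRL ibrutinib replicate 1 and 0.040 without sgKLHL14 DMSO replicate 2.

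Amino acid response genes, of which ibrutinib lowered 27 of 31 with sgCTRL and 28 with sgKLHL14, had median responses of -0.86 with sgCTRL and -0.87 with sgKLHL14 and a median interaction of 0.024. Without 1 library that median ran from 0.0045 (sgCTRL DMSO replicate 2) to 0.061 (sgKLHL14 ibrutinib replicate 2). WARS (0.35), ATF5, a factor of that response (0.36), and ALDH1L2, a mitochondrial folate enzyme (0.41), were at the unadjusted level on the positive side and SLC3A2, an amino acid carrier subunit (-0.20), on the negative side. Cholesterol synthesis genes had a median of -0.045 with 17 of 22 negative, glycolysis and hypoxia genes -0.029, and ribosome biogenesis genes -0.043. In the cholesterol, glycolysis and ribosome biogenesis lists 0 members reached an unadjusted p under 0.05 in limma. The cholesterol median was -0.018 without sgCTRL DMSO replicate 1 and -0.084 without replicate 2. Of 9 replication-dependent histone genes 3 were at the unadjusted level, all negative: HIST1H2AC (-0.40), HIST1H2BK (-0.34) and HIST1H1C (-0.32). These 3 estimates were smaller rises with sgKLHL14 and not falls. Ibrutinib raised 8 of the 9 genes with sgCTRL and 7 with sgKLHL14, and lowered 0 with either guide. Their median responses were 0.68 and 0.55. The median interaction of that list was -0.13. It was -0.30 with thinned reads, -0.23 without sgKLHL14 ibrutinib replicate 2 and -0.020 without sgCTRL ibrutinib replicate 1.

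BCL2 family genes had a median of 0.096, with 3 of 15 at the unadjusted level, all positive, and MHC class II genes a median of 0.047, with 3 of 17 at that level, all positive. The BCL2 family median ran from 0.041 without sgKLHL14 DMSO replicate 2 to 0.149 without sgKLHL14 ibrutinib replicate 2, and the MHC class II median reached 0.123 without sgKLHL14 DMSO replicate 1. For MHC class I genes the median was 0.043, with 0 of 17 at an unadjusted p under 0.05 in limma, which ran from 0.011 without sgKLHL14 DMSO replicate 2 to 0.111 without replicate 1. Medians were 0.018 for the FOXO-linked list, 0.021 for p53 targets and 0.025 for germinal centre genes. The sign of the median changed in some fits without 1 library for the germinal centre (down to -0.025), FOXO-linked (-0.013) and p53 target (-0.014) lists, and for the glycolysis (up to 0.0005), ribosome biogenesis (0.017) and BTB-Kelch (0.005) lists.

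**Figure D4:**
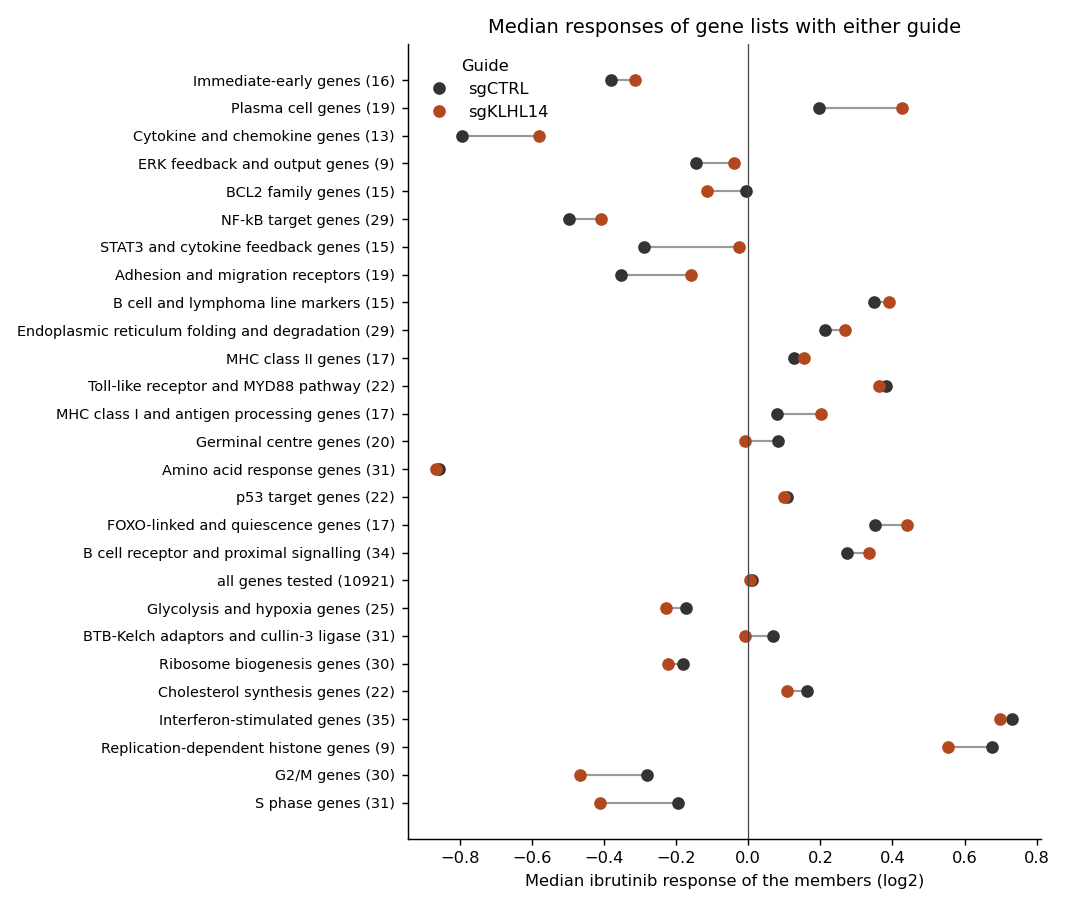
Median ibrutinib response (horizontal axis, log2) of each gene list with sgCTRL (black) and sgKLHL14 (red), member counts in brackets and lists ordered from the most negative median interaction at the bottom to the most positive at the top. S phase and G2/M genes lie further to the left with sgKLHL14 (-0.41 and -0.47 against -0.20 and -0.28), and plasma cell genes further to the right (0.43 against 0.20).

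Precision set what could be seen. The median half-width of the 95% interval of the interaction was 0.25 over all genes. It was 0.53 for the 1960 genes with a mean level of 6 to 8, 0.30 for those of 8 to 10, 0.21 for those of 10 to 12 and 0.18 above. The interval lay within a 2-fold difference of responses in either direction for 97.3% of genes, and within a 1.5-fold difference for 82.4%, from 23.3% of the lowest to 99.8% of the highest level class. These intervals are per gene and not adjusted for the number of genes. An estimate beyond 1 was seen for 7 genes, of which 0 passed.

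**Figure D5:**
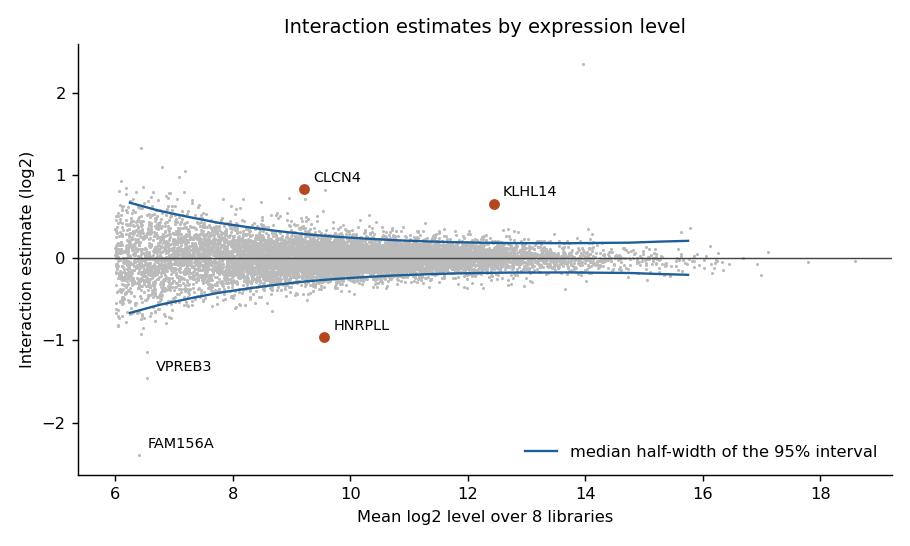
Interaction estimates (vertical axis, log2) against the mean log2 level over 8 libraries (horizontal axis) for 10921 genes; red points are the 3 genes that passed and the blue lines are the median half-width of the 95% interval in steps of level. The lines narrow from over 0.5 at the lowest levels to about 0.18 at high levels, and HNRPLL, KLHL14 and CLCN4 lie well outside them.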

How the data were processed

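Per the submitters' processing notes, the tools were bcl2fastq, STAR and HTSeq, on hg19. Their versions, the annotation and any use of strand are not stated in the labels, so overlapping, antisense or near-identical genes may share reads. The deposited values are on the log2 scale: per the file headers they are normalized counts, and within 6e-04 all were log2 of whole reads times a library factor, with 0 reads listed at 0. A row of total reads was left out of the tests, and 0 columns belonged to other samples. Log2 values of the 10921 members entered limma 3.58.1 as 4 group means (R 4.3.3, with a variance trend, 4 residual and 13.7 prior degrees of freedom) and adjusted over all of them. Reference gene identifiers matched 97.8% of members, and coordinates are printed for promoters only, since builds differ. The fit was tested on simulated reads. Named genes are KLHL14, BTK, called genes, the 10 smallest p in each direction among genes with a reference symbol, and up to 3 members per list. The level threshold's nearest neighbours are also named. Members and the 29 lists were chosen with earlier results of these data known. Other list members at an unadjusted p under 0.05 were named after their values were seen. Alternatives covered filters, variance priors, scaling, pseudocount, voom, thinned reads, a replicate block, unmoderated tests, the call threshold and each library left out.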

Additional observations from a re-analysis of the deposited data

Results flagged for a closer look

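Genes whose ibrutinib responses differ between guides by the interaction term of the limma fit stand out for a closer look. The difference, sgKLHL14 response minus sgCTRL response, was -0.96 for HNRPLL, 0.66 for KLHL14 and 0.84 for CLCN4. HNRPLL and KLHL14 passed in 17 of 20 other settings, and CLCN4 in 8 of 20.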

How the results depend on the processing

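The number of genes called for the interaction, 3 in the fit reported, was 0 without a filter on low values, 0 without the variance trend and 0 without moderation, where 1045, 626 and 638 genes were at an unadjusted p under 0.05. It was 5 with quantile scaling and 5 with the replicate number as a block, and 2 to 4 without 1 library. Quantile scaling added C1orf38 (0.75, adjusted p = 0.0453) and ATF5 (0.42, adjusted p = 0.0453), and the replicate block added C1orf38 (adjusted p = 0.0431) and LOC100288578. Whether replicate numbers pair the libraries is not stated in the labels. Differences between replicates 1 and 2 correlated across genes at -0.084 to 0.19 between groups, with 2 of 6 pairs of groups above 0.1. Such correlations cannot show whether same-numbered libraries were prepared together. The guide difference in DMSO gave 47 calls without the filter, 70 without the trend, 360 with the replicate block, 2 without moderation, 363 at an adjusted p under 0.10 and 57 to 554 without 1 library, where 554 was without sgKLHL14 DMSO replicate 2. The guide difference in ibrutinib gave 155, 164, 16 and 446 calls without the filter, without the trend, without moderation and at an adjusted p under 0.10, and 121 to 349 without 1 library. Responses gave 2415 (sgCTRL) and 2952 (sgKLHL14) calls without moderation, and 2758 to 4411 and 3411 to 4677 without 1 library. Median interactions of strong responders were 0.015 to 0.070 (rising) and 0.036 to 0.094 (falling) without 1 library. The COL1A2 estimate, -0.39, ran from -0.87 without sgCTRL DMSO replicate 2 to 0.086 without replicate 1, where its sign turned. The cause of these changes was not tested. Where 1 library was left out, its partner was assumed to vary like the other groups.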

Other observations

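Interaction estimates beyond 1 that did not pass were looked at after their values were seen. FAM156A had the lowest estimate (-2.39, SE 1.15, limma adjusted p = 0.878), with 2 reads in sgKLHL14 ibrutinib replicate 2 and 52 to 132 in the other 7. EEF1AL7 was at 7.28 in sgKLHL14 ibrutinib replicate 2 and between 5.92 and 6.76 elsewhere (1.33, limma adjusted p = 0.476). It had 30 to 80 reads per library, while the similarly named EEF1A1 had 181565 to 333947. FAM156B, beside FAM156A, had 2 to 5. Whether reads were shared between such genes was not tested.

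Replicate libraries of sgKLHL14 DMSO differed by 1 or more on the log2 scale, with at least 100 reads in a library, for PKD1P1, RPL18AP3 and STAG3L1. ICOSLG, a costimulatory ligand, was at 7.23 and 6.83 in sgCTRL DMSO, 7.10 and 6.75 in sgCTRL ibrutinib, 6.01 and 6.24 in sgKLHL14 DMSO, and 6.93 and 7.32 in sgKLHL14 ibrutinib (1.11, SE 0.29, limma adjusted p = 0.476).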
